A study of Mus musculus with 6 samples.

Results

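Piezo1, Piezo2, Asic1, Asic2, Asic3, Asic4, Stoml3 and Whrn encode channels proposed or known to sense mechanical force or acid, and 2 of their partner proteins. They were taken by symbol, with every annotated transcript that the data hold, and make up 8 of the 37086 genes measured. Dorsal root ganglia were taken from mouse embryos at 14.5 days post coitum (strain C57BL/6J, genotype wild type), and those of 18 embryos were pooled before RNA extraction. From that single RNA stock 6 libraries were made: 3, 10 and 30 ng of total RNA entered cDNA synthesis either in 9 µl (high volume) or in 1 µl (low volume), each volume with its own SMARTer kit. The libraries are therefore technical repeats of 1 pool, every SD, SE and p-value below measures spread between libraries and not between embryos, and volume and kit cannot be told apart. The embryos carried no transgene or targeted allele, and the ganglia were not sorted, so all cell types of the ganglion contributed RNA.

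Piezo channels are very large, many-pass membrane proteins that assemble as propeller-shaped trimers and let cations into the cell when the membrane is stretched. Piezo2 is the main transducer of light touch and of muscle stretch in sensory neurons of the dorsal root ganglion, whereas Piezo1 is best known from blood vessels, red blood cells and epithelia. Acid-sensing ion channels (ASICs) belong to the degenerin and epithelial sodium channel family, assemble as trimers, conduct sodium when protons bind outside the cell, and resemble the channels that carry touch in nematodes. Stoml3 is a stomatin-like membrane protein that raises the sensitivity of mechanically gated currents. Whrn encodes whirlin, a PDZ scaffold of hair cell stereocilia that is also made by proprioceptive neurons.

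The kinship of the 4 ASIC genes could be read from a short exon that all of them carry. In each gene this exon was 57 bases long, the exon 2 places upstream was 128 bases long, and those 2 and 3 places downstream were 92 and 80 bases long. Of its 57 bases, 23 were identical in all 4 genes, and these are the capitals below (GENCODE M21 transcripts, GRCm38, coding strand, 5′ to 3′). They are shown because they let the relatedness of the family be compared base by base, at chr15:99696972-99697028 for Asic1, chr11:80891744-80891800 (minus strand) for Asic2, chr5:24416381-24416437 for Asic3 and chr1:75470279-75470335 for Asic4.
Asic1: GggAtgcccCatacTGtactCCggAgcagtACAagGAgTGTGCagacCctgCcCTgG
Asic2: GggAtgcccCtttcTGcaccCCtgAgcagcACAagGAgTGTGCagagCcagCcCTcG
Asic3: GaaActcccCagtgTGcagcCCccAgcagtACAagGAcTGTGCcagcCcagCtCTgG
Asic4: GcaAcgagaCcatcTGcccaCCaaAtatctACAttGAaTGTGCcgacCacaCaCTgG
Asic1 and Asic2 matched at 48 of the 57 bases (84.2%), Asic3 matched each of them at 39 (68.4%), and Asic4 matched Asic1 and Asic3 at 31 (54.4%) and Asic2 at 30 (52.6%). Over the whole coding sequence Asic1 and Asic2 were 72.2% identical, Asic1 and Asic4 67.5%, and Asic2 and Asic4 68.2%. The same measure was 68.3% between Piezo1 and Piezo2, which have 2546 and 2824 codons. Asic3 was left out of the whole-sequence comparison because its GENCODE M21 transcript lacks an exon that the deposited transcript has. Over the 6 libraries the exon held 132 tags in Asic1, 93 in Asic3, 27 in Asic2 and 1 in Asic4. The Asic4 exon and its neighbours are those of transcript ENSMUST00000037708. The transcript that stands for Asic4 elsewhere, ENSMUST00000113577, lacks the 57-base exon. A tag is 1 read assigned to a feature.

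The genes covered a wide range of levels. These were taken over whole transcripts, although tags lay more densely towards the 3′ end in the genes measured for it below. By RPKM, the authors' tags per kilobase of transcript per 1000000 tags of the library, the order was Asic1 (10.4 ± 3.14, SD, n = 6 libraries), Asic3 (6.75 ± 1.59), Piezo2 (5.87 ± 0.573), Asic2 (2.30 ± 1.23), Piezo1 (1.15 ± 0.447), Asic4 (0.249 ± 0.208), Whrn (0.242 ± 0.0771) and Stoml3, which held no tag in any library. Thus 5 of the 8 genes had a mean RPKM of 1 or more, a level that 33.8% of all genes reached. Piezo1 was among them only with its exons that overlap another gene, described below, and was at 0.426 on its other exons. Those other exons leave out the 3′ end of the transcript. The median of the 16120 genes with enough tags for testing was 3.42, so Asic1, Asic3 and Piezo2 lay above it and the others below. Each gene was represented by its transcript with the most tags, namely ENSMUST00000067252 for Piezo1, ENSMUST00000047480 for Piezo2, ENSMUST00000023758 for Asic1, ENSMUST00000066197 for Asic2, ENSMUST00000049346 for Asic3, ENSMUST00000113577 for Asic4, ENSMUST00000063650 for Whrn and ENSMUST00000029307 for Stoml3. The libraries held 14160397 to 31524210 tags on the transcripts chosen for all genes, and those made from 3 ng were the shallowest.

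Neighbours in this order were compared within each library on log2(RPKM + 1), a scale that understates differences between low genes. Of the 28 pairs of genes, 23 differed in the same direction in 6 of 6 libraries, with a 2-sided exact sign-flip p of 0.0312, the smallest that 6 libraries allow (adjusted over the 28 pairs, 0.038). Of these 23, 7 are pairs with Stoml3, which was at 0 throughout, so that any gene with tags in every library had to give this p. Of the 21 other pairs 16 passed. Piezo2 was above Piezo1 in 6 of 6 libraries, by 1.70 ± 0.26 (SD). Asic1 was above Asic3 in 5 of 6 by 0.54 ± 0.61 (exact p = 0.0625, adjusted 0.07), Asic3 above Piezo2 in 4 of 6 by 0.15 ± 0.25 (exact p = 0.188, adjusted 0.202), and Asic2 above Piezo1 in 4 of 6 by 0.54 ± 0.90 (exact p = 0.219, adjusted 0.227). In whole-transcript RPKM these 3 neighbouring pairs did not differ beyond the spread between libraries. Nor did Asic4 and Whrn, whose difference was -0.004 ± 0.246 (exact p = 0.969). Asic2 and Asic4 also missed the threshold, at 1.31 ± 0.76 with Asic2 higher in 5 of 6 libraries (exact p = 0.0625, adjusted 0.07).

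**Figure D1:**
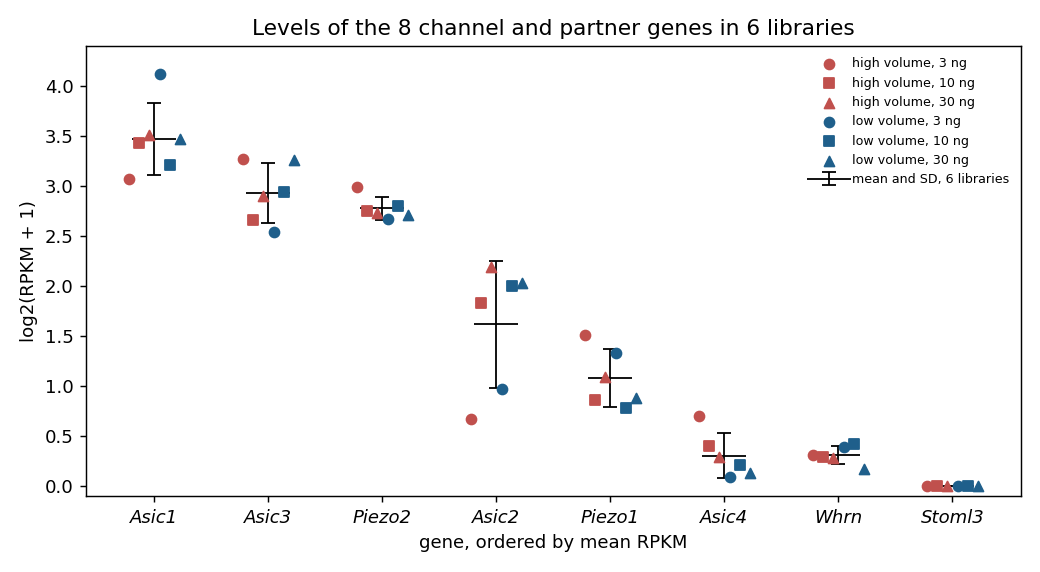
Level of each gene in each library as log2(RPKM + 1), by volume (colour) and RNA input (symbol), with the mean and SD of the 6 libraries in black. The 2 Asic2 points at 3 ng lie well below the other 4, Piezo2 is the tightest of the detected genes relative to its level, and Stoml3 sits at 0 throughout.

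Piezo2, the touch and proprioception channel (chr18:63010213-63387183, minus strand, GRCm38), had the narrowest relative range of the 7 detected genes. Its RPKM was 5.73, 6.97 and 5.63 in the high-volume libraries at 10, 3 and 30 ng and 5.97, 5.37 and 5.57 in the low-volume libraries at the same inputs. The highest library was 1.30 times the lowest, and the 2 volumes overlapped. The estimated difference, high minus low volume, was 0.26 ± 0.14 (log2, SE; edgeR adjusted p = 0.788). Per doubling of the input the slope was -0.04 ± 0.05 on the log2 scale.

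Piezo1 (chr8:122481698-122551329, minus strand) had an RPKM of 0.819, 1.85 and 1.14 in the high-volume libraries at 10, 3 and 30 ng and of 0.725, 1.51 and 0.846 in the low-volume libraries. Both 3 ng libraries were above all 4 others. Its volume difference was 0.46 ± 0.36 (edgeR adjusted p = 0.802), and its input slope was -0.23 ± 0.12 per doubling (edgeR unadjusted p = 0.0974, adjusted 0.632). Most of these tags, however, lay in exons that overlap another gene. Exons 45 to 51, at the end of the transcript and 17.1% of its length, share bases with Ctu2 (chr8:122476143-122484138, plus strand), a gene for tRNA thiolation. They held 880 Piezo1 tags, or 68.2%, and the 44 other exons held 411, or 31.8%. The counts do not use strand, so tags of the 2 genes in the shared stretch cannot be told apart.

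Per length, the overlapping exons of Piezo1 had an RPKM of 4.63 ± 2.11 (SD, n = 6) and the other 44 exons 0.426 ± 0.140. Ctu2 was at 4.69 ± 1.32, and its 2 highest libraries were the 3 ng libraries, at 7.16 for high and 5.04 for low volume. Because strand is not used, this Ctu2 value can include the tags of the shared stretch. It is therefore not an independent level, and Ctu2 free of that stretch was not measured. On the exons without overlap the RPKM of Piezo1 was 0.347, 0.655 and 0.532 at high volume and 0.349, 0.391 and 0.281 at low volume, at 10, 3 and 30 ng. On these exons the low-volume 3 ng library was no longer above the 30 ng high-volume one, and the input slope was -0.12 ± 0.18. The level of Piezo1 on the exons without overlap was thus 0.426, in place of 1.15 on all exons. These exons leave out the 3′ end of the transcript. In Piezo2, whose exons overlap no other gene, the last exon was 14.8% of the length and held 46.9% of all tags. How much of the lower Piezo1 value came from leaving out the 3′ end, and how much from Ctu2, was not tested. The 0.426 was therefore not ranked against the whole-transcript levels of the other genes. The pair comparisons above rest on all exons of Piezo1. The endothelial markers, whose cells are known for Piezo1, were present in all libraries, and each of the 6 reached a mean RPKM of 1. Their summed RPKM ran from 143 to 166, highest at 3 ng and high volume. Ramp2 (95.7), Cldn5 (29.6) and Kdr (5.27) peaked in that library, while Pecam1 was at its lowest there (5.01). Cdh5 (4.49 there) and Egfl7 (25.7 there) peaked in other libraries. The erythroid list summed to 3754 to 4935, again highest in the high-volume 3 ng library. Of that list only Hbb-bs (1260) peaked there. The part of either cell type in the Piezo1 values was not tested.

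Along the transcripts, tags of both Piezo genes were densest towards the 3′ end. In Piezo2 the last of 54 exons, 14.8% of the length, held 46.9% of all tags. Its density was 20.4 ± 2.61 tags per kb per 1000000 tags (SD, n = 6), against 6.87 ± 2.44 in exons 42 to 53, 3.00 ± 0.778 in exons 15 to 41 and 3.42 ± 1.29 in exons 1 to 14 (blocks chosen after the profile was seen). All 54 exons held tags in the 10 and 30 ng libraries, while at 3 ng, the inputs with the fewest tags in all, 7 exons in the high-volume and 12 in the low-volume library held none. Piezo1 was sparser: its exons 1 to 23 had a density of 0.282 ± 0.285 and exons 24 to 44 of 0.662 ± 0.144, and 14 to 38 of its 51 exons held no tag, most of them at 3 ng.

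**Figure D2:**
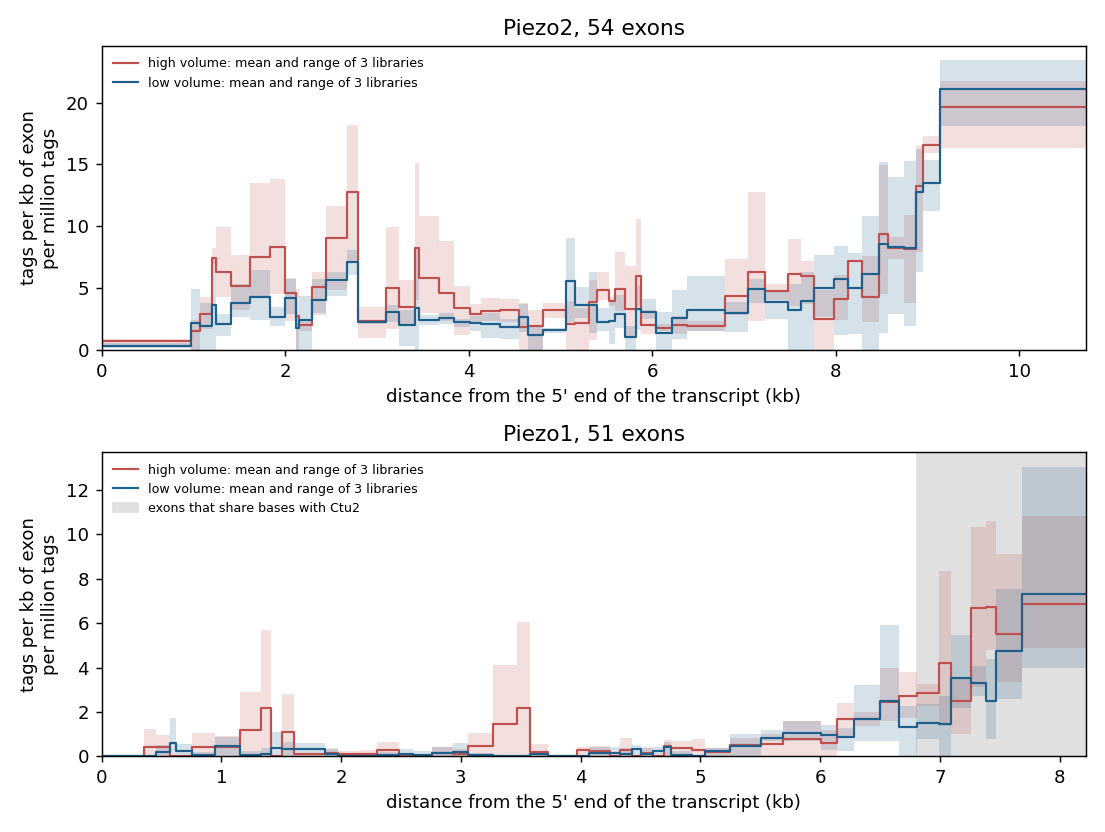
Tag density of each exon (tags per kb of exon per 1000000 tags) along the Piezo2 and Piezo1 transcripts, as the mean and range of the 3 libraries of each volume. Density is highest in the last exon of Piezo2, near 20, and in Piezo1 mainly over the shaded exons that share bases with Ctu2.

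The tilt was measured as the log2 ratio of tag density in the last over the first of 3 equal parts of the transcript, with 0.1 added to each density. It was 3.33 ± 0.78 for Piezo1, 1.97 ± 0.51 for Piezo2, 1.31 ± 0.50 for Asic1 and 1.16 ± 0.54 for Asic3 (SD, n = 6). Among genes within 20% of the same length the medians were 0.92, 0.94, 0.53 and 0.32, over 760, 310, 2592 and 1784 genes, and 91.2%, 73.5%, 69.8% and 79.5% of these genes were below the named one. For Piezo1 this ratio includes the exons shared with Ctu2. Piezo2 was less tilted in the high-volume libraries (mean 1.62) than in the low-volume ones (2.32), and Asic1 was more tilted at high volume (1.62 against 1.00). For Asic1 the 2 volumes were nearly equal at 30 ng (1.45 at both). Its lowest value, 0.359, was that of the low-volume 3 ng library. The exact permutation p was 0.1 for each of these genes, the smallest that 3 libraries against 3 allow, so neither difference could pass the threshold.

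Asic1 encodes the subunit common to most acid-gated currents of neurons and had the highest mean RPKM of the 8 genes (chr15:99670368-99701130, plus strand). Its RPKM was 9.78, 7.38 and 10.4 at high volume and 8.25, 16.3 and 10.1 at low volume, at 10, 3 and 30 ng. The low-volume 3 ng library stood above the others, whereas the high-volume 3 ng library was the lowest. The volume difference was -0.16 ± 0.27 (edgeR adjusted p = 0.894) and the slope -0.05 ± 0.10 per doubling of input.

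Both Asic1 and Asic2 have 2 alternative starts that give subunits with different amino-terminal parts and shared later exons: forms 1a and 1b (526 and 559 codons) and forms 2a and 2b (512 and 563 codons). The first 60 coding bases of each are given because they fall in the stretch by which the forms are told apart, with the start codon in capitals (GENCODE M21, GRCm38, 5′ to 3′). They lie at chr15:99671800-99671859 for 1a, chr15:99692371-99692430 for 1b, chr11:81968125-81968184 (minus strand) for 2a and chr11:81152406-81152465 (minus strand) for 2b.
Asic1 form 1a: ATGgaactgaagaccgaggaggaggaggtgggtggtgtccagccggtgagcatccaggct
Asic1 form 1b: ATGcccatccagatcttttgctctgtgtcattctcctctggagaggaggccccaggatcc
Asic2 form 2a: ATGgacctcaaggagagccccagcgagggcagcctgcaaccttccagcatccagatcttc
Asic2 form 2b: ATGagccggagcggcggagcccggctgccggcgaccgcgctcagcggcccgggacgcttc
Of Asic1, the deposited data list the 1a transcript, 1 of 6 in GENCODE M21. Exons 2 and 3, which are particular to it, held 21, 9 and 30 tags at high volume and 33, 74 and 30 at low volume, at 10, 3 and 30 ng, 197 in all. The low-volume 3 ng library, the one with the highest Asic1 level, also had the most tags on these exons. The first exon of 1b lies inside intron 3 of the 1a transcript (chr15:99673064-99694693, 21630 bases). That intron held 395 tags, with 41 to 88 in every library, against 15 tags in the 10 other introns together. These counts are not per length, and intron 3 makes up most of the 26647 intronic bases of the transcript. The tags of the intron are not placed more finely in the data, so how many fall on the 1b exon was not measured.

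Asic2, a subunit found in central and sensory neurons, had the steepest input slope of the 7 tested genes (chr11:80880169-81968457, minus strand). Its RPKM was 2.55, 0.598 and 3.57 at high volume and 3.01, 0.963 and 3.10 at low volume, at 10, 3 and 30 ng, a range of 5.98 times. Both 3 ng libraries were below the other 4. The input slope was 0.64 ± 0.18 per doubling (log2, SE), with an unadjusted p of 0.0078 that did not pass the adjustment over 16120 genes (edgeR adjusted p = 0.625; DESeq2 0.0767). The volume difference was -0.08 ± 0.43 (edgeR adjusted p = 0.972).

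The tags behind those low values were few and lay mostly in the last exon. The high-volume 3 ng library held 25 Asic2 tags, and all 25 were in the last of the 10 exons (100%, exact 95% binomial interval 86.3 to 100%). The low-volume 3 ng library had 36 of 44 there (81.8%, 67.3 to 91.8%). In the 4 other libraries the last exon held 52.6% to 62.4% of 178 to 284 tags, and every exon had tags. Such intervals cover counting error only, since the tags carry no molecular identifiers.

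Asic2 also had the largest intronic share of the 7 tested genes. Of its exon and intron tags, 76.8% ± 8.52 (SD, n = 6) were intronic, against a median of 5.26% and a 75th percentile of 16.5% over 10032 genes with introns and at least 50 tags in every library. Its introns span 1085589 bases, and they contain the 2b first exon and other genes, whose tags are counted with them. Intronic tags stood at 24.5, 21.2 and 22.8 CPM (tags per 1000000) at high volume and 20.7, 10.2 and 26.4 at low volume, at 10, 3 and 30 ng. The high-volume 3 ng library was thus within the range of the others in introns, while it was the lowest in exons. Piezo2 had 36.8% ± 8.25 intronic tags, lowest in the low-volume 3 ng library at 17.3 CPM in introns against 37.4 to 49.9 elsewhere. Asic1 had 6.83% ± 1.33 and Asic3 1.03% ± 0.888.

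**Figure D3:**
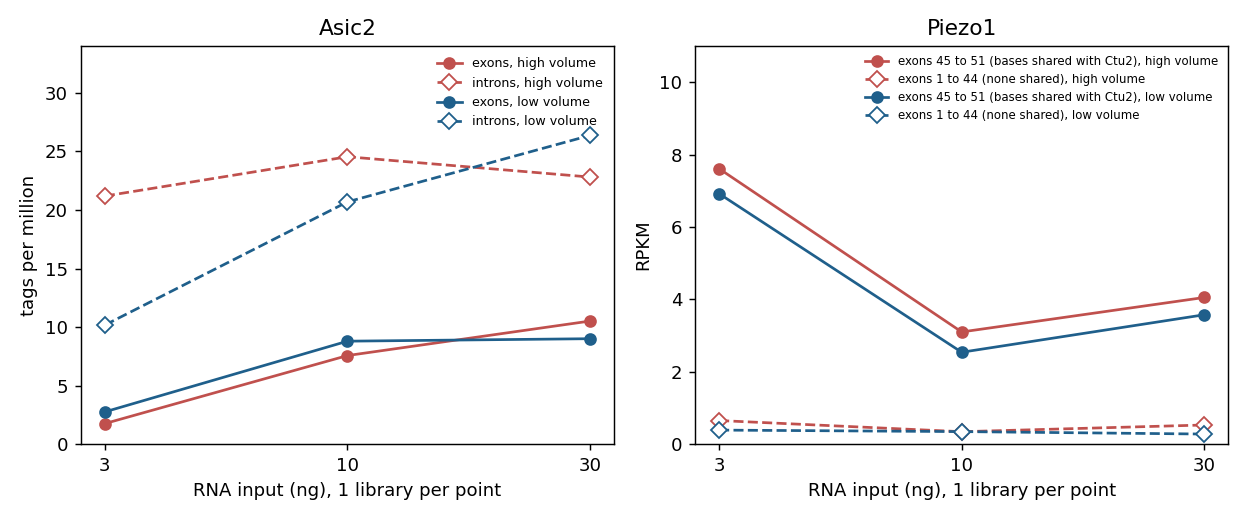
Left, Asic2 tags per 1000000 in exons and introns. Right, RPKM of Piezo1 over exons 45 to 51, which share bases with Ctu2, and over exons 1 to 44, each against RNA input with 1 library per point. Exonic Asic2 is lowest at 3 ng at both volumes, and the difference of Piezo1 between 3 ng and the other inputs lies mainly in the exons shared with Ctu2.

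Between the 2 starts of Asic2, the first exon of form 2a (chr11:81967630-81968457) held 77 tags and that of form 2b (chr11:81151758-81153321) 32. Their RPKM was 0.520 ± 0.485 and 0.151 ± 0.163 (SD, n = 6). Form 2a was higher in 4 libraries, form 2b in the low-volume 3 ng library, and neither exon had a tag in the high-volume 3 ng library. The difference on log2(RPKM + 1) was 0.35 ± 0.55 (2-sided exact sign-flip p = 0.188), and the 5 libraries with a difference allow no p below 0.0625, so the test could not have passed the threshold.

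Asic3, the ASIC most closely tied to peripheral sensory neurons and to pain from acid in muscle, was well covered for its short length (chr5:24413392-24417835, plus strand). Its RPKM was 5.32, 8.61 and 6.47 at high volume and 6.70, 4.81 and 8.57 at low volume, at 10, 3 and 30 ng. The 2 libraries at 3 ng were the highest and the lowest of all 6, so the volumes overlapped and no order by input was seen. All of its 11 exons held tags in every library. The volume difference was 0.19 ± 0.33 (edgeR adjusted p = 0.894) and the slope 0.05 ± 0.12.

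Asic4, a relative that does not form an acid-gated channel by itself (chr1:75450436-75474343, plus strand), was near the limit of detection. It had 22, 26 and 17 tags at high volume and 12, 3 and 9 at low volume, at 10, 3 and 30 ng. The corresponding RPKM was 0.319, 0.630 and 0.226 against 0.155, 0.066 and 0.099, so every high-volume library was above every low-volume library. The fitted difference was 1.84 ± 0.91 (log2, SE; edgeR unadjusted p = 0.0801, adjusted 0.788), which did not pass the threshold. Asic4 shares 436 bases, 16.3% of its length, with the annotated gene Gm37264. On the exons without overlap it had 16, 8 and 15 tags at high volume and 10, 3 and 8 at low volume, so that 8 of the 26 tags of the high-volume 3 ng library remained. The difference there was 1.26 ± 0.90 (edgeR unadjusted p = 0.201, adjusted 0.795).

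Of the partner proteins, Whrn (chr4:63414910-63495991, minus strand) held 140 tags in all, 15 to 40 per library, and 5 to 11 of its 12 exons had none. Its RPKM was 0.221, 0.241 and 0.212 at high volume and 0.343, 0.309 and 0.125 at low volume, at 10, 3 and 30 ng, and the volumes overlapped (difference 0.01 ± 0.74, edgeR adjusted p = 0.995). Its upstream start held 1 tag and could not be compared with the internal ones. Stoml3 (chr3:53488653-53508502, plus strand) held 0 exonic tags in each library, which allows an RPKM of up to 0.0497 in the deepest and 0.109 in the shallowest library, taking 3 tags as the upper limit of a count of 0. Its introns held 10 tags over all libraries, in 3 of the 6. At this depth Stoml3 was not detectable, and Stoml3 is the 1 gene of the 8 that could not be tested.

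Across all genes, 1 of 16120 (0.00620%) differed between volumes at an edgeR adjusted p under 0.05, and 6.67% had an unadjusted p under 0.05. A fit in which libraries of equal input form a replicate block lost that call (0 genes), and DESeq2 called 182 genes. By edgeR no tested member was called (0 of 7), and 0 of 7 had an unadjusted p under 0.05 by either tool. DESeq2 gave an adjusted p for 2 of the 7, Asic1 (0.826) and Piezo2 (0.465), and none for the other 5. By these counts the members did not stand out from the background. For input no gene was called by edgeR (0%) and 44 by DESeq2, 7.77% had an unadjusted edgeR p under 0.05, and 1 of the 7 members, Asic2, was among these. The RPKM of the 2 volumes did not overlap in 1 of 7 members, Asic4, against 19.0% of all genes tested. The RPKM of the 3 ng libraries did not overlap the others in 2 of 7, Asic2 and Piezo1, against 28.4% of all genes tested. These shares are close to what the rest of the genes gave. The median volume difference over all genes was 0.02.

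Genes that act beside the channels were also present. Of 17 other genes for mechanically gated or proposed mechanically gated channels, 8 had a mean RPKM of 1 or more, led by Tmem120a (78.2 ± 18.1), Tmem63b, an osmosensitive cation channel (14.3 ± 2.92), and Tmem150c (4.71 ± 1.34). Of 4 stomatin relatives of Stoml3, 3 were at 1 or more: Stoml2, a mitochondrial member (62.3 ± 15.2), Stoml1 (23.2 ± 4.23) and Stom, stomatin itself, which binds ASICs (5.74 ± 2.21). Of 4 other genes of the degenerin and epithelial sodium channel family none reached 1, and Scnn1a, the highest, was at 0.0327. Within the family, Asic1, Asic2 and Asic3 were thus the genes with a mean RPKM above 1.

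Of 8 genes named as Piezo partners 7 were at 1 or more, with Mtmr2, a lipid phosphatase (14.8 ± 2.90), Fermt2, an integrin activator (13.3 ± 3.66), and Atp2a2, the calcium pump SERCA2 (9.50 ± 2.30), as the highest. All 6 ASIC partners were at 1 or more, among them Pick1, a PDZ protein that binds ASIC tails (10.0 ± 1.75), Lin7b (8.91 ± 2.08) and Nedd4l, a ubiquitin ligase (4.68 ± 0.574). Among 7 other proton sensors 2 were at 1 or more, namely Trpv1, the capsaicin receptor (20.1 ± 5.48), and Tmem206, the proton-activated chloride channel (7.03 ± 1.98). Of 8 whirlin partners 5 were, led by Mpp1 (22.2 ± 4.54), Cib2 (17.1 ± 3.38) and Cask (8.74 ± 1.96). Of 13 genes of the mechanoreceptor and proprioceptor lineage 11 were, led by Pvalb (52.9 ± 8.73), Etv1 (15.8 ± 3.08) and Ret (10.1 ± 1.23). No gene of these lists was called for volume or input by edgeR, among 3 to 13 tested per list, or 0 in the sodium channel list.

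**Figure D4:**
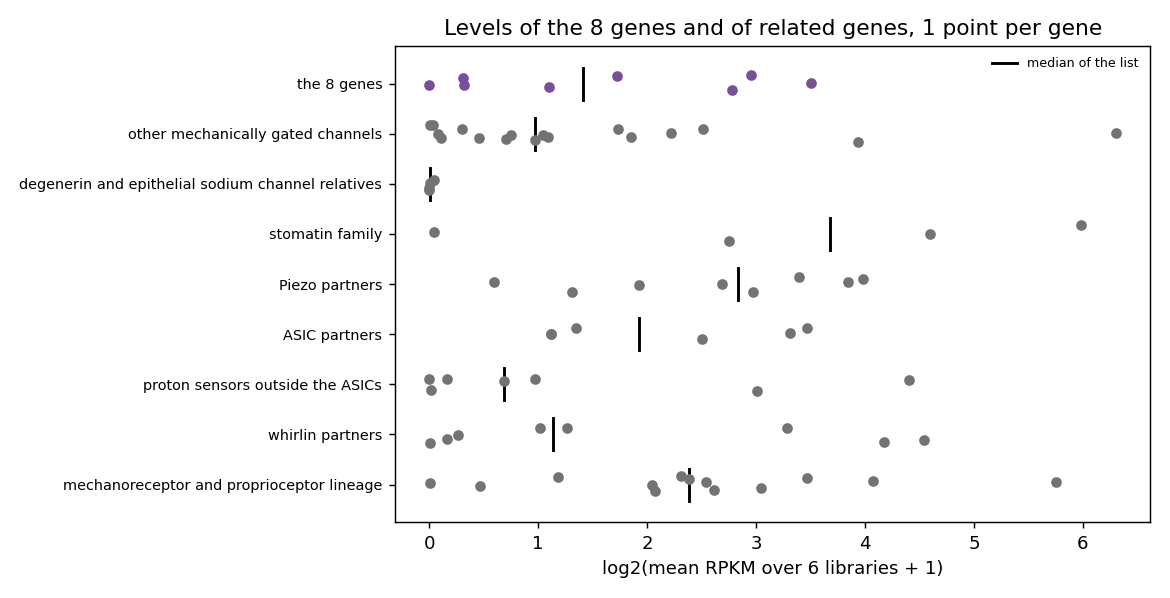
Mean RPKM over the 6 libraries, as log2(mean + 1), of the 8 genes and of the genes in 8 lists of related channels, partners and lineage genes, with 1 point per gene and a bar at the median of each list. The degenerin and epithelial sodium channel relatives all lie near 0, while Tmem120a lies farthest to the right.

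The tissue label was checked against its markers. All 7 sensory neuron markers had a mean RPKM of 10 or more (Sncg 4956 and Tubb3 2961 as the highest), and all 6 glial markers were at 1 or more. Their summed RPKM ran from 6978 to 10152 and from 928 to 1075. The sensory neuron sum was highest in the low-volume 3 ng library, which was also the highest for Asic1. That sum is mostly Sncg and Tubb3, which peaked there (5886 and 3608). The other markers of the list peaked in other libraries, and Isl1 (111) and Scn9a (15.6) were at their lowest in this one. Markers of neighbouring tissues were seen too. Of 5 spinal cord markers 1 was at 1 or more, Hes5 (5.85), while Chat (0.418), Pax6 (0.415), Olig2 (0.0052) and Mnx1 (0.0030) were lower. Of 4 skeletal muscle markers 3 were at 1 or more, Mylpf (22.0), Acta1 (10.1) and Myog (1.41), and Myod1 was at 0.085. Of 4 cartilage markers 2 were, Cnmd (47.3) and Col2a1 (2.99), while Sox9 (0.749) and Acan (0.042) were lower. The part of these tissues in the members' levels was not tested. The pool was bulk tissue, so fewer cells of a type and less RNA per cell cannot be told apart.

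Genes whose profile was most like that of each Piezo gene were listed by Pearson's r of log2 CPM over the 6 libraries, among genes of a mean level within a factor of 2. For Piezo2 they were Xrcc1 (0.991), Fbxo44 (0.990) and Rbm10 (0.973), with 59 of 3139 candidates above 0.9. For Piezo1 they were Zfp251 (0.989), Senp1 (0.985) and Syngr2 (0.979), with 117 of 4649 above 0.9. The Piezo1 profile was that of all its exons, so 68.2% of the tags behind it lie in exons shared with Ctu2. The points are libraries of 1 pool and share its composition, so these values describe likeness over technical differences only.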

How the data were processed

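RNA sequencing was done on 6 libraries, 3 per volume, each a technical repeat of 1 pool. The submitters' processing notes name CASAVA 1.8, TopHat2 2.0.8, Bowtie2 2.1.0 and the GRCm38.p1 build. Neither the program that counted tags nor its gene annotation is named there. Whole-number tag counts per transcript, exon and intron were deposited by the authors, as were RPKM values that the authors computed per kilobase and library total. Transcripts were assigned to genes with GENCODE M21 (89664 of 93615 matched), and each gene was represented by its transcript with the most tags. Coordinates are 1-based, and counts do not use strand.

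Counts of all 37086 genes entered edgeR 4.0.16 in R 4.3.3 (TMM, expression filter, quasi-likelihood test with Benjamini-Hochberg adjustment, threshold 0.05), in a model with volume and log2 input; 16120 genes passed the filter, 7 of the 8 members among them. The fit left 3 residual degrees of freedom. DESeq2 1.42.0 was an alternative. Levels were compared as log2(RPKM + 1) by exact sign-flip tests. Depth ran from 14160397 to 31524210 tags on the transcripts that stood for the genes, with no molecular identifiers.

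The members and lists were chosen with earlier results of these data known. All 8 members are named, up to 3 genes of highest mean RPKM from each partner list plus any past the threshold, and the 3 genes most like each Piezo gene. Further choices made after the values were seen are said where they occur. The alternatives were other scalings, filters, covariates, transcripts, DESeq2, the input as a block, and leaving out each library. One more, counting members on exons shared with no other gene, was added after seeing the data. Members whose libraries hold few tags (Asic4, Whrn) are limited by counting error. In the partner lists, Pacc1 is a later name of the listed Tmem206, and 2 other genes are not reported here.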

Additional observations from a re-analysis of the deposited data

How the results depend on the processing

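No member that had an adjusted p was called for volume or input under any alternative run. DESeq2 gave none to 5 of the 7 members for volume (Piezo1, Asic2, Asic3, Asic4 and Whrn) and to Asic4 for input, so these could not be called there. The number of genes called for volume was 1 and became 11 without the filter, 182 with DESeq2, 278 with the 10 and 30 ng libraries only, and 0 with the input as a replicate block, which pairs the libraries of equal input. Leaving out 1 library gave 0 to 2. For input it was 0 and became 2 without the filter and 44 with DESeq2. With 5 libraries no pair of members could pass the sign-flip test, so leaving out 1 gave 0 of 28. With 4 parts in place of 3 the tilt of Asic1 was 1.99 in place of 1.31.

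Several differences that were not called changed sign, and the cause was not tested. With the 10 and 30 ng libraries only, the volume difference was 0.27 for Asic1, 0.12 for Asic2 and -0.24 for Asic3. Without the input covariate it was 0.063 for Asic2 and -0.047 for Whrn, and with total-count scaling -0.11 for Whrn. Leaving out 1 library moved it from -0.36 to 0.24 for Asic1, -0.43 to 0.23 for Asic2, -0.22 to 0.41 for Asic3 and -0.37 to 0.33 for Whrn. The input slope then ran from -0.098 to 0.021 for Piezo2, -0.16 to 0.15 for Asic1, -0.076 to 0.25 for Asic3 and -0.45 to 0.050 for Asic4, and was 0.057 for Asic4 on unshared exons. The difference of Asic4 and Whrn ran from -0.084 to 0.054. For the starts of Asic2 the first exon alone was already the measure.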
